A study of Bos taurus with 6 samples.

Results

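The genes described here are a set of muscle atrophy and catabolic stress genes, measured in longissimus thoracis, a large muscle along the back, of 6 Japanese Black steers. Members were all probe sets of the array whose annotation names exactly 1 gene, equal to a listed symbol, with control probe sets left out. Of 7 listed genes, 4 had such a probe set: FBXO32 with 2 probe sets, SGK1 with 3, DDIT4 with 1 and GLUL with 1, numbered below in the order of their identifiers, which makes 7 of the 24016 tested probe sets. TRIM63, FOXO1 and FOXO3 carried no such probe set in the annotation used and were not analysed here. The restricted group of 3 castrated males had its vitamin A intake restricted, without the oral supplement, and the supplemented group of 3 castrated males was given 296.8 IU per kg body weight by mouth each week. All 6 were 13 to 14 months old at the start and were fattened for 7 months, with enough feed for a gain of 1.0 kg a day. At sampling, restricted steers 1, 2 and 3 were 589, 595 and 611 days old, and supplemented steers 1, 2 and 3 were 600, 612 and 618 days old. The series design counts 6 steers for the 6 arrays, and the labels say nothing of a single steer's vitamin A status.

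In skeletal muscle, insulin and IGF1 act through the kinase AKT to keep FOXO transcription factors out of the nucleus. When this signal weakens, as in fasting or under glucocorticoids, FOXO factors switch on a programme that includes the muscle ubiquitin ligases and autophagy genes. FBXO32, also called atrogin-1, is the F-box subunit of one of these ligases, and TRIM63, also called MuRF1, is the other classical one. DDIT4, also called REDD1, is induced by glucocorticoids, low oxygen and energy stress and inhibits the growth kinase complex mTORC1. GLUL is glutamine synthetase, which muscle uses to make glutamine for export and which glucocorticoids induce. SGK1 is a kinase related to AKT that is induced by glucocorticoids and insulin and can phosphorylate FOXO factors.

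Levels are the authors' deposited values, taken as log2, of 1 array per steer. These values differ very little between arrays, and their normalization is not described in the available sources. Differences are therefore stated on the deposited log2 scale and as multiples of a probe set's own within-diet standard deviation (SD), and are not read as fold changes. The median range of a probe set over the 6 arrays was 6.77e-07, and array medians lay within 8.88e-06 of each other. Skeletal muscle fibre markers, 8 measured of 10, had mean log2 values of 9.71 to 12.7, all in the highest 10% of probe sets. In muscle tissue, fewer cells of a type and less RNA per cell cannot be told apart.

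Most of these probe sets varied widely between steers for this table. Only 199 of the 24016 probe sets, 0.829%, ranged over more than 0.001 log2 units, and 6 of the 7 members were among them. The range of DDIT4, 0.0703, was the 3rd widest of the table. SGK1 ranked 14th with a range of 0.0260 and 30th with 0.0123, GLUL ranked 88th with 0.00302, and FBXO32 ranked 114th with 0.00224 and 171st with 0.00133. The widest 1% of probe sets began at 0.000781, a limit chosen after the values were seen, and the second FBXO32 probe set was the member nearest to it. The remaining member, the third SGK1 probe set, ranked 17955th with a range of 2.29e-07. Spread grew with level in this table, but probe sets in the highest 10% of levels still had a median range of 1.84e-05, far below that of these 6. The wide ranges were not particular to these genes: 3 of 6 measured connective tissue markers and 3 of 7 adipocyte markers were in the widest 1% too, with COL1A2 6th at 0.0398 and FABP4 13th at 0.0263. With quantile normalization 3 members in place of 6 were in the widest 1%, and both FBXO32 probe sets then had equal values on all arrays.

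**Figure D1:**
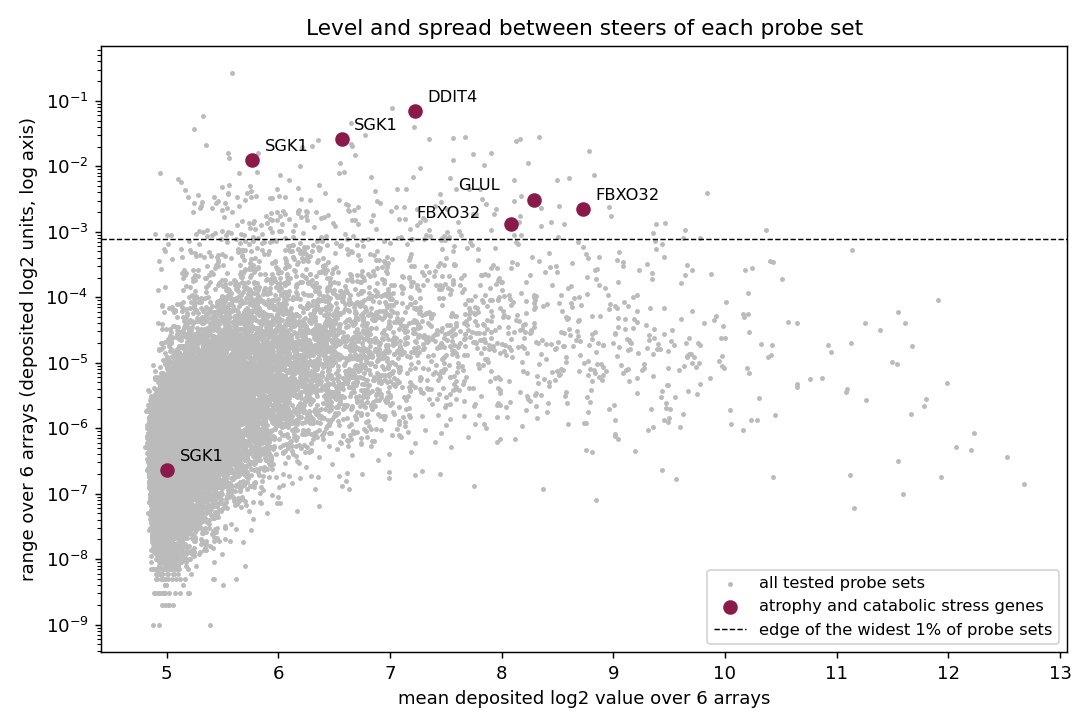
Mean deposited log2 value of each tested probe set (horizontal axis) against its range over the 6 arrays (vertical log axis); grey points are all 24016 probe sets, dark points the 7 members, and the dashed line the edge of the widest 1%. Of the members, 6 lie above the line, with DDIT4 highest at 0.0703, and 1 SGK1 probe set lies low at 2.29e-07.

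FBXO32, the ubiquitin ligase subunit, had a wider spread among restricted than among supplemented steers in its first probe set, where the SD ratio was 4.82, a value exceeded by 3.98% of all probe sets. With single steers left out this ratio, which was not tested, ran from 2.91 without restricted steer 2 to 93.1 without supplemented steer 3. Log2 values of this probe set were 8.725822, 8.724541 and 8.726785 in restricted steers 1 to 3, against 8.726235, 8.726252 and 8.726648 in supplemented steers 1 to 3. Restricted steer 2 was the lowest and restricted steer 3 the highest of all 6, and the supplemented steers lay inside the restricted range. The means were 8.725716 ± 0.00113 and 8.726378 ± 0.000234 in restricted and supplemented steers (SD, n = 3 each). The difference of -0.000662 log2 units (95% interval -0.00233 to 0.00101) did not pass limma's test, with an unadjusted p of 0.344 and an adjusted p of 1. Leaving out restricted steer 2 gave -7.49e-05, leaving out restricted steer 3 gave -0.00120, and adding age to the fit gave -0.000121.

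The other FBXO32 probe set had log2 values of 8.081835, 8.080855 and 8.082182 in restricted steers, against 8.082072, 8.082137 and 8.081481 in supplemented steers. It too had restricted steer 2 lowest and restricted steer 3 highest, while supplemented steer 3 was second highest in the first probe set and second lowest in this one. Its SD ratio of 1.90, exceeded by 20.5% of all probe sets, was 0.679 without restricted steer 2 and 15.0 without supplemented steer 3. Its difference was -0.000273 (95% interval -0.00140 to 0.000856, limma unadjusted p = 0.551), and was 0.000112 without restricted steer 2. The 2 probe sets had a Pearson r of 0.779 over the 6 steers (exact permutation p = 0.0778, adjusted 0.613) and a Spearman rho of 0.657 (exact permutation p = 0.175, adjusted 0.525). Without restricted steers 2 and 3, the farthest from the median, r was -0.473, so the likeness of the 2 probe sets rested on those steers.

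DDIT4, the mTORC1 inhibitor, had the widest spread of the 4 genes, and almost none of it lay between the diets. Its log2 values were 7.18103, 7.23768 and 7.24643 in restricted steers 1 to 3, against 7.22190, 7.25136 and 7.20539 in supplemented steers 1 to 3. The lowest value was that of restricted steer 1 and the highest that of supplemented steer 2, with the diets interleaved. Means were 7.22171 ± 0.0355 in restricted and 7.22622 ± 0.0233 in supplemented steers (SD, n = 3 each), a difference of -0.00451 (95% interval -0.0662 to 0.0571, limma unadjusted p = 0.854, adjusted p = 1). Diet took up 0.837% of the variation of DDIT4 over the 6 arrays, where the median of all probe sets was 11.3%. This share was 0.481% in GLUL, 19.9% and 8.46% in FBXO32, and 18.2%, 20.9% and 25.5% in SGK1. The sign depended on single steers, with 0.0158 without restricted steer 1 and 0.00807 without supplemented steer 2, and was positive at 0.0110 with age as a covariate.

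GLUL, glutamine synthetase, had almost equal diet means but a very unequal spread. Its log2 values were 8.289016, 8.290231 and 8.292033 in restricted steers 1 to 3, against 8.290241, 8.290426 and 8.290247 in supplemented steers 1 to 3. The 3 supplemented steers lay close together in the middle, with restricted steer 1 below them and restricted steer 3 above. The SD was 0.00152 in restricted and 0.000105 in supplemented steers (n = 3 each), a ratio of 14.4, and 0.475% of all probe sets had a higher ratio. This ratio was singled out after the values were seen and was not tested, and with any 1 steer left out it ran from 8.17 without restricted steer 3 to 336 without supplemented steer 2. The mean difference was 0.000122 (95% interval -0.00209 to 0.00233, limma unadjusted p = 0.889, adjusted p = 1), and moved to -0.000681 when restricted steer 3 was left out, to 0.000828 when restricted steer 1 was, and to 0.00107 when age was fitted. The SD ratio of restricted over supplemented steers was above 1 in 4 of 7 members, against 48.2% of all probe sets.

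SGK1, the AKT-related kinase, was measured by 3 probe sets, of which 2 gave the same order of all 6 steers. The first had log2 values of 6.57582, 6.55935 and 6.55714 in restricted steers 1 to 3, against 6.58310, 6.56254 and 6.57042 in supplemented steers 1 to 3. The second had 5.76964, 5.76228 and 5.76145 in restricted steers, against 5.77371, 5.76428 and 5.76713 in supplemented steers. In both, supplemented steer 1 was highest, restricted steer 1 second, and restricted steers 2 and 3 lowest, so the diets overlapped only through restricted steer 1.

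The difference between the diets in SGK1 was -0.00792 in the first probe set (95% interval -0.0290 to 0.0132, limma unadjusted p = 0.369) and -0.00392 in the second (95% interval -0.0135 to 0.00568, limma unadjusted p = 0.332), with an adjusted p of 1 in both. With age as a covariate these differences were -0.0168 and -0.00804 (limma unadjusted p = 0.0864 and 0.0701, adjusted p = 1 for both). Without supplemented steer 1 they were -0.00238 and -0.00125, and without restricted steer 1 they were -0.0138 and -0.00651. The 2 probe sets had a Pearson r of 0.997 over the 6 steers (exact permutation p = 0.00139, adjusted 0.0292 over the 21 pairs of member probe sets) and a Spearman rho of 1.000 (exact permutation p = 0.00278, adjusted 0.0583). Both unadjusted p-values are the smallest that these tests can give with 6 steers. Without supplemented steer 1 and restricted steer 3, r was 0.996. Whether the 2 probe sets share probes is not known here.

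The third SGK1 probe set did not follow them. It read 5.003867650, 5.003867630 and 5.003867724 in restricted steers, against 5.003867685, 5.003867495 and 5.003867606 in supplemented steers. It was higher by 7.27e-08 in the restricted group (limma unadjusted p = 0.310), and the difference was -2.15e-06 when the arrays were shifted to the same median. Its Pearson r with the first SGK1 probe set was 0.161 (exact permutation p = 0.769, adjusted 0.906), with a Spearman rho of -0.029 (exact permutation p = 1). The whole range of this probe set is smaller than the spread of the array medians of 8.88e-06.

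**Figure D2:**
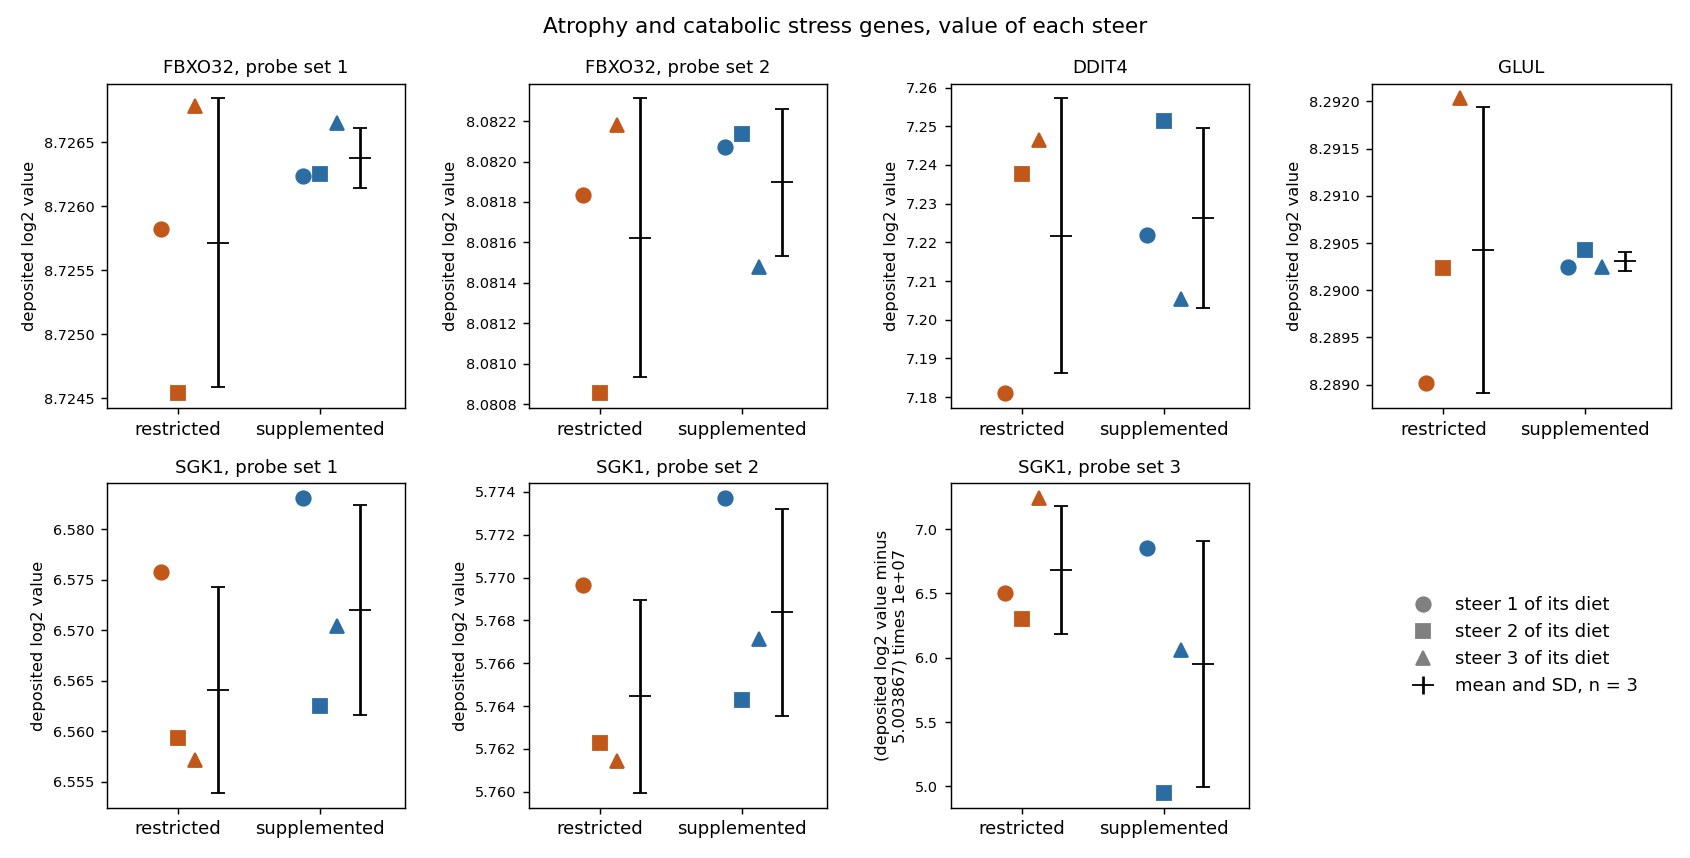
Deposited log2 value (vertical axis, a separate scale per panel) of each member probe set in restricted (left) and supplemented (right) steers; symbols mark the 3 steers of a diet and bars the mean and SD (n = 3). The diets overlap in all 7 panels, GLUL is tight only in supplemented steers, and the first 2 SGK1 panels show the same order of steers.

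Set side by side, 0 of the 7 members passed the adjusted threshold of 0.05 in limma, against 0.00416% of all probe sets, which is 1 of 24016. At an unadjusted p under 0.05 there were again 0 members, against 4.08% of all probe sets, and the smallest member p was 0.310. In 0 of 7 members the diets were without overlap, against 8.76% of all probe sets. On the signed difference 2 members were higher and 5 lower in restricted steers, where 48.3% of all probe sets were higher and 51.7% lower, and the median difference was -0.496 within-diet SDs, against -0.0328 over all probe sets. The members are not independent, as they belong to 4 genes. Intervals were wide on this scale: for DDIT4 they ran from -2.20 to 1.90 within-diet SDs and for the first SGK1 probe set from -2.82 to 1.28.

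**Figure D3:**
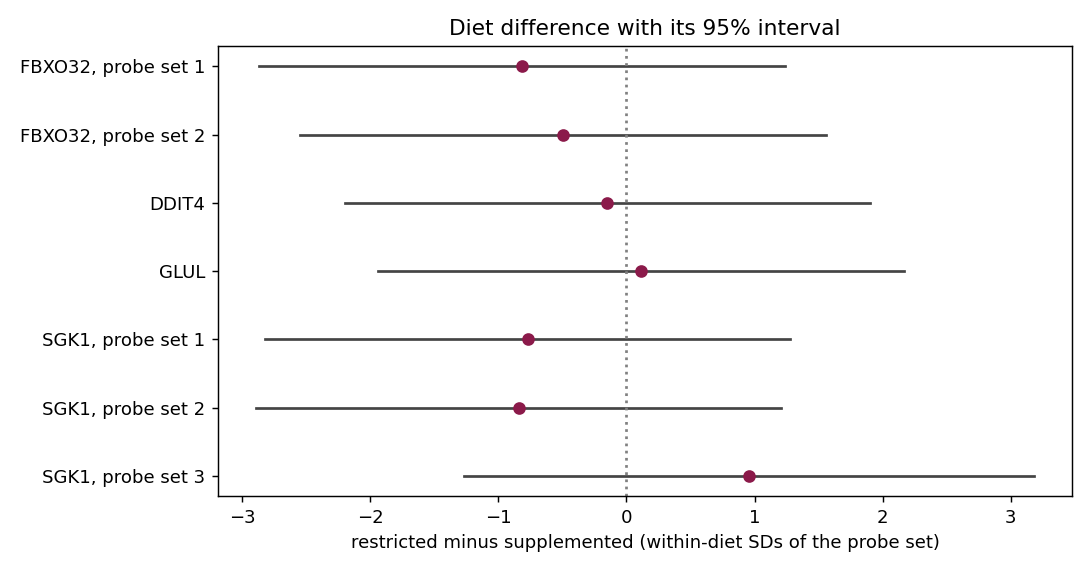
Difference between restricted and supplemented steers in within-diet SDs (horizontal axis) for each member probe set (rows), with limma's 95% interval as a line. All 7 intervals include 0, and the points run from -0.838 to 0.956 SDs.

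FBXO32 and GLUL ordered the steers most alike of the pairs of genes by rank, with a rho of 0.886 for the first FBXO32 probe set (exact permutation p = 0.0333, adjusted 0.350) and 0.714 for the second (exact permutation p = 0.136, adjusted 0.525). Their Pearson r was 0.422 (exact permutation p = 0.310, adjusted 0.813) and 0.299 (exact permutation p = 0.503, adjusted 0.906), with 0.784 and 0.890 after the 2 steers farthest from each FBXO32 median were left out, restricted steers 2 and 3 for the first and restricted steer 2 and supplemented steer 3 for the second. Restricted steer 3 was highest in both genes. Restricted steer 1 was lowest in DDIT4 and GLUL and second highest in the first 2 SGK1 probe sets. Restricted steer 2 was lowest in FBXO32 only. Over the 21 pairs of member probe sets the relation of the 2 SGK1 probe sets was the 1 with an adjusted Pearson p under 0.05. Between genes, DDIT4 and GLUL had an r of 0.751 (exact permutation p = 0.108, adjusted 0.613) and a rho of 0.714 (exact permutation p = 0.136, adjusted 0.525), with r at 0.442 without restricted steer 1 and supplemented steer 3. DDIT4 and the first SGK1 probe set had an r of -0.674 (exact permutation p = 0.144, adjusted 0.613) and a rho of -0.657 (exact permutation p = 0.175, adjusted 0.525), with r at -0.847 without the same 2 steers.

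SGK1 ran opposite to PDK4, a kinase that shuts pyruvate out of the citric acid cycle and that FOXO factors and glucocorticoids induce. PDK4, by its probe set of highest mean, had log2 values of 7.9041, 7.9106 and 7.9129 in restricted steers 1 to 3, against 7.8971, 7.9102 and 7.9080 in supplemented steers 1 to 3. Its order of steers was the exact reverse of that of the first 2 SGK1 probe sets. With the first SGK1 probe set the Pearson r was -0.966 (exact permutation p = 0.00139, adjusted 0.0333) and the Spearman rho -1 (exact permutation p = 0.00278, adjusted 0.0667), and r was -0.958 without supplemented steer 1 and restricted steer 3. The pair was noticed in these data and is 1 of 24 relations computed between the 4 genes and 6 others, all chosen after the values were seen: FOS, and PDK4, CEBPD, DUSP1, ATF3 and NDRG2, the pathway genes in the widest 1% of ranges. Both unadjusted p-values of this pair are the smallest that these tests can give with 6 steers. The adjustment covers the 24 relations and not the choice of the pair. A second PDK4 probe set gave the same reversed order, and another exchanged restricted steers 2 and 3. PDK4 itself differed between the diets by 0.00405 (limma unadjusted p = 0.420, adjusted p = 1).

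DDIT4 was low in the steers in which FOS, an immediate early gene that responds within minutes to stress and handling, was low. FOS had log2 values of 5.4370, 5.6982 and 5.5926 in restricted steers 1 to 3, against 5.6355, 5.6526 and 5.5094 in supplemented steers 1 to 3, the widest range of the table at 0.261. Restricted steer 1 and supplemented steer 3 had the 2 lowest values of both genes. The Pearson r was 0.854 (exact permutation p = 0.0292, adjusted 0.233) and the rho 0.714 (exact permutation p = 0.136, adjusted 0.525), and without those 2 steers r was -0.120, so the relation rested on them. The summed log2 value of 9 measured immediate early genes of 11, FOS among them, was 50.8216, 51.1211 and 50.9858 in restricted steers, against 51.0240, 51.0598 and 50.8965 in supplemented steers. This sum was lowest in restricted steer 1 and supplemented steer 3 too, but FOS supplied most of its spread. It is therefore not a reading separate from FOS. The part of these early genes' signal in DDIT4 was not tested.

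**Figure D4:**
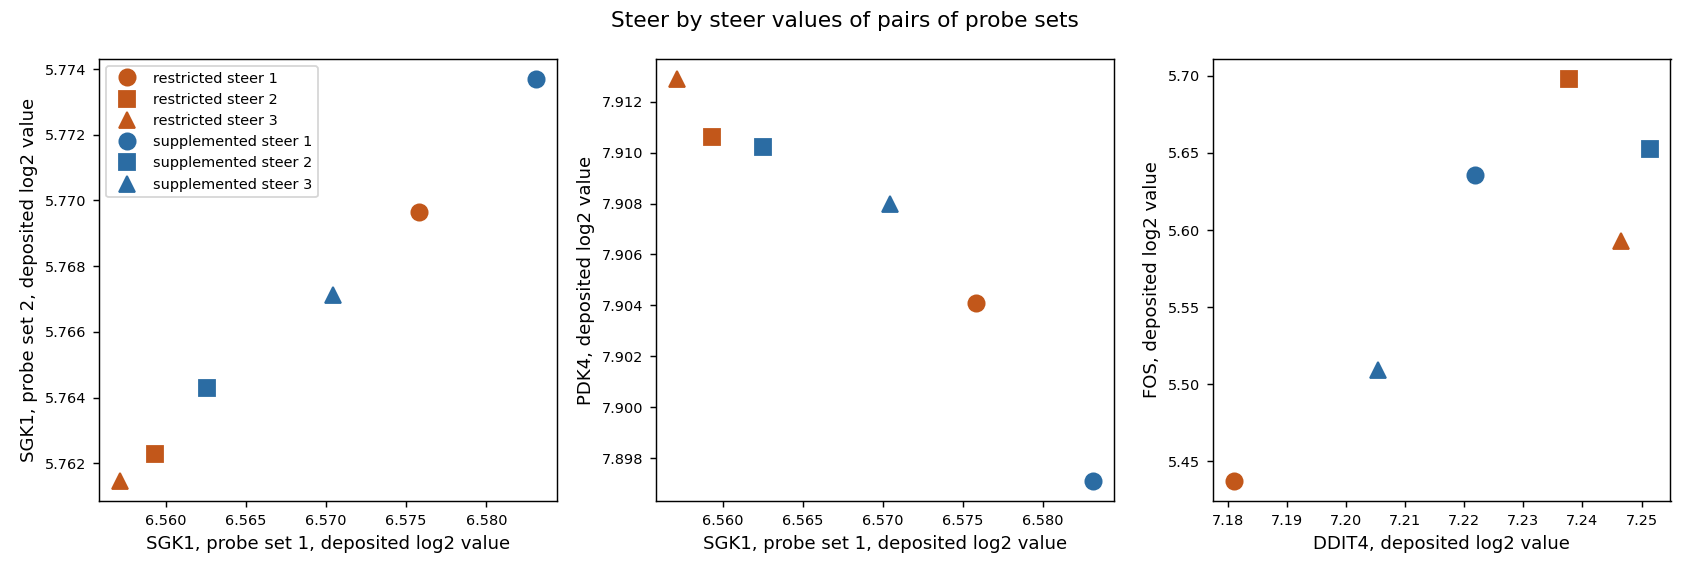
Deposited log2 values of 2 probe sets against each other for the 6 steers, with colour for the diet and symbol for the steer; left, 2 SGK1 probe sets; middle, SGK1 and PDK4; right, DDIT4 and FOS. The SGK1 probe sets rise together (r = 0.997), SGK1 and PDK4 run opposite (r = -0.966), and DDIT4 and FOS are both lowest in restricted steer 1 and supplemented steer 3.

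Among 9154 other genes, those with the pattern most like each member over the 6 arrays were named as a description. For DDIT4 they were KLF4, a transcription factor, with r = 0.9931 and SLC25A25, a mitochondrial carrier of adenine nucleotides, with r = 0.9878. KLF4 read 5.9245, 5.9257 and 5.9258 in restricted steers, against 5.9253, 5.9260 and 5.9251 in supplemented steers. By their probe sets of highest mean, both genes had the same order of steers as DDIT4. Another SLC25A25 probe set, with a range of only 1.66e-06, exchanged restricted steer 3 and supplemented steer 2. For SGK1 they were MYOZ2, a Z-disc protein of slow fibres, with r = 0.9892 and NQO2 with r = 0.9839. For FBXO32 they were RAC1, a small GTPase, with r = 0.9889 and AMBN with r = 0.9719, and for GLUL HMCES with r = 0.9900 and AP1M2 with r = 0.9787. AMBN, AP1M2 and NQO2 ranged over 1.28e-07, 5.10e-08 and 5.60e-08 log2 units, far less than the members they were matched with. RAC1 and HMCES, at 3.33e-06 and 1.59e-06, also ranged far less than FBXO32 and GLUL. All these ranges were below the spread of the array medians of 8.88e-06. With 6 arrays, between 15 and 17 genes had an r over 0.95 with each member.

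Genes around this pathway were followed with 9 lists of 197 genes, 147 of them measured, with the probe set of highest mean standing for each gene. In limma 0 of the 147 passed the adjusted threshold, against 0.0109% of the 9155 genes so measured, and 7 had an unadjusted p under 0.05, which is 4.76%, against 4.62% of all genes. The diets were without overlap in 16 of them, 10.9% against 8.74% of all genes. In all, 77 were higher and 70 lower in restricted steers, where 49.5% of all genes were higher and 50.5% lower, and 48 changed sign when the arrays were shifted to the same median, as did 3539 of all 9155 genes. Array medians averaged 2.22e-06 higher in restricted steers, so this shift lowers each difference by that amount and turns signs only from higher to lower. Of all 9155 genes, 4531 were higher before the shift, and 3539 of these turned lower with it. A low count of higher genes after the shift is therefore not particular to a list. The counts of the 9 lists below are given with the shift as well.

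Of the other ubiquitin ligases and related enzymes, 10 of 17 measured were higher and 7 lower, with a median difference of 0.0826 within-diet SDs, against -0.00788 over all genes, but 2 were higher with the median shift. UBE2D2, a conjugating enzyme, differed by -3.77e-06 or -2.02 SDs (limma unadjusted p = 0.0523). Of autophagy and lysosome genes, 13 of 29 were higher and 16 lower, with a median of -0.329 SDs, and 5 were higher with the shift. PIK3R4, a subunit of the lipid kinase complex that starts autophagosomes, differed by -2.93e-06 or -4.59 SDs (limma unadjusted p = 0.00278, adjusted p = 1), and ULK2, an autophagy-starting kinase, by -6.59e-06 or -2.32 SDs. MAP1LC3A, an autophagosome membrane protein, went the other way by 4.64e-06 or 2.19 SDs (limma unadjusted p = 0.0409), which was 2.42e-06 with the median shift (limma unadjusted p = 0.202). The shift gave -5.99e-06 for UBE2D2 and -5.15e-06 for PIK3R4 (limma unadjusted p = 0.144 and 0.0868).

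Of the insulin, AKT and FOXO list, 6 of 14 genes were higher and 8 lower (median -0.250 SDs), with 1 higher after the shift, and the smallest unadjusted limma p was that of the insulin receptor INSR at 0.138. INSR has 5 probe sets, 2 higher and 3 lower. The glucocorticoid list had 11 of 16 higher and 5 lower (median 0.291 SDs), with 7 higher after the shift. In it NR3C1, the glucocorticoid receptor, differed by -4.34e-06 or -2.59 SDs (limma unadjusted p = 0.0239, adjusted p = 1) without overlap of the diets, but by -6.56e-06 with the median shift (limma unadjusted p = 0.0546) and by 6.93e-06 with quantile normalization. DUSP1, a phosphatase induced by glucocorticoids and by stress, differed by -0.00149 or -1.44 SDs (limma unadjusted p = 0.128). The list holds 3 genes in the widest 1% of ranges, PDK4, DUSP1 and CEBPD.

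For mTORC1 and its regulators, the pathway that DDIT4 restrains, 7 of 17 genes were higher and 10 lower (median -0.121 SDs), against 2 higher after the shift and 13 with age as a covariate, with EIF4E, the cap-binding factor, at 3.30e-05 or 1.81 SDs (limma unadjusted p = 0.0719). The integrated stress response had 13 of 19 higher and 6 lower (median 0.317 SDs), none at an unadjusted p under 0.05, and 3 were higher after the shift. Around GLUL, genes of glutamine and amino acid handling were higher in 11 of 17 and lower in 6 (median 0.107 SDs), with 8 higher after the shift. SLC1A3, a glutamate transporter, differed by -1.16e-06 or -3.43 SDs (limma unadjusted p = 0.00885, adjusted p = 1), and GOT2, the mitochondrial aspartate aminotransferase, by 2.47e-05 or 2.26 SDs (limma unadjusted p = 0.0371, adjusted p = 1). The shift gave -3.39e-06 for SLC1A3 (limma unadjusted p = 0.232).

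Around SGK1, 3 of 8 measured substrates and effectors were higher and 5 lower (median -0.124 SDs), against 1 higher after the shift and 6 with age as a covariate. NDRG2 read 7.4571, 7.4568 and 7.4575 in restricted steers, against 7.4578, 7.4579 and 7.4596 in supplemented steers. The diets did not overlap in NDRG2, whose difference of -0.00135 or -1.79 SDs had a limma unadjusted p of 0.0743 and an adjusted p of 1. KCNJ2, a potassium channel, differed by 2.04e-05 or 2.59 SDs (limma unadjusted p = 0.0239, adjusted p = 1). The sign of KCNJ2 was not kept with quantile normalization. Myostatin and activin genes were higher in 3 of 10 and lower in 7 (median -0.196 SDs), against 0 higher after the shift and 6 without restricted steer 1, with the smallest unadjusted limma p at 0.156 for the receptor ACVR2A.

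**Figure D5:**
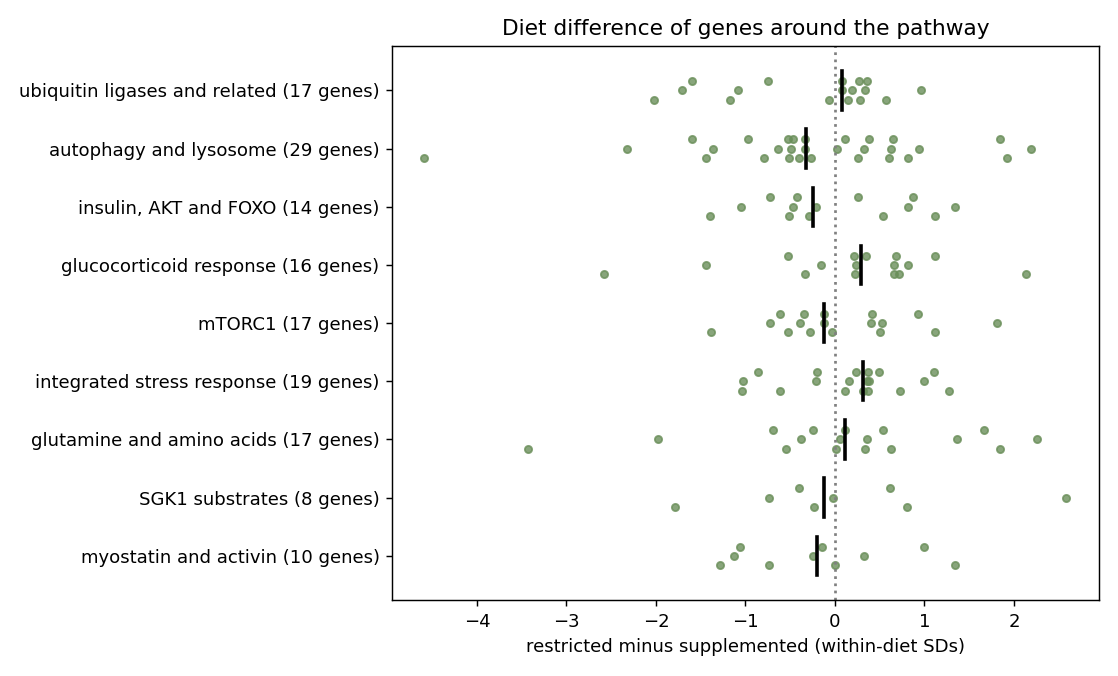
Difference between restricted and supplemented steers in within-diet SDs (horizontal axis) for each measured gene (point) of 9 lists around the pathway (rows), with black bars at the list medians. The medians run from -0.329 for autophagy to 0.317 for the integrated stress response, and PIK3R4 stands farthest out at -4.59.

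Markers of other cells were read beside SGK1, which is expressed in many cell types. The summed log2 value of 6 connective tissue markers was 41.0680, 41.0523 and 41.0557 in restricted steers 1 to 3, against 41.0922, 41.0389 and 41.0561 in supplemented steers 1 to 3. It was highest in supplemented steer 1 and next in restricted steer 1, as the first 2 SGK1 probe sets were. This sum was lowest in supplemented steer 2, which was not lowest in those 2 probe sets. COL1A2, with a range of 0.0398, supplied most of the spread of this sum. Other lists differed in supplemented steer 1, by mean deviation in SDs over the 6 arrays. Endothelial and smooth muscle markers were lowest there (-0.635 and -0.479), and macrophage and nerve markers highest (0.899 and 0.875). On this measure connective tissue markers were highest there too, at 1.62. Median ranges of endothelial and macrophage markers were only 3.27e-06 and 1.25e-06 log2 units, below the spread of the array medians of 8.88e-06. Those of smooth muscle and nerve markers were 0.000136 and 0.000138, against 0.00127 for connective tissue. The part of connective tissue in SGK1 was not tested. Adipocyte markers were higher in restricted steers in 7 of 7 measured genes of 8 and lower in 0, and in 6 after the shift, with 0 past the adjusted threshold in limma. Their sum was 43.0484, 43.0195 and 43.0375 in restricted steers, against 43.0361, 43.0037 and 43.0217 in supplemented steers.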

How the data were processed

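Biotin-labelled RNA of 6 steers, made from 100 ng of total RNA each, was measured on a 3 prime expression array, per the labels' protocols. The deposited values of 24128 probe sets, 1 column per array, were taken as log2. How the authors corrected background, normalized and summarized them, and the log base, is not given in the sources used here. After 112 control probe sets were left out, the values were multiplied by 1e+09 and the diets were compared, as restricted minus supplemented, by lmFit and eBayes of limma 3.58.1 (R 4.3.3). The p-values of 24016 probe sets were adjusted together by Benjamini-Hochberg, with a threshold of 0.05. Residual degrees of freedom were 4 and prior ones 0.483. The fit was tested on simulated data, with shifts larger in within-diet SDs than any member difference. That test does not show what the fit can detect at the sizes seen here. Each array is a different steer, and 6 arrays limit the precision. Correlations over steers used exact two-sided permutation tests. Over 6 steers without ties, the smallest p these tests can give is 0.00139 for Pearson r and 0.00278 for Spearman rho. Gene symbols come from the platform annotation, and the gene identifiers of all 7 member probe sets matched a current record of that symbol. The members, lists and tests were chosen with earlier results of these data known. Named genes are all member probe sets, up to 3 genes per list with the smallest p and the 2 genes most like each member. PDK4, FOS, CEBPD and the markers' sums were added after the values were seen. The difference in age between restricted and supplemented steers was -11.7 days (exact two-sided permutation p = 0.2, smallest possible 0.1). Alternatives were a shift of arrays to the same median, quantile normalization, a filter on low means, age, array weights, the replicate number as a block, each steer left out and, for list counts, the mean of all probe sets of a gene.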

Additional observations from a re-analysis of the deposited data

How the results depend on the processing

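The number of probe sets past the adjusted threshold was 1, and 0 with age as a covariate, 0 with the replicate block, 22 with quantile normalization and 1 to 2 with single steers left out (2 without supplemented steer 3). Quantile normalization left 15456 probe sets equal on all arrays, among them both FBXO32 probe sets and the third of SGK1, and tested 8560. Members in the widest 1% numbered 6, and 3 with quantile normalization. Member and pathway genes past the threshold numbered 0 under every alternative fit, with quantile normalization over the probe sets it tested.

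The difference in DDIT4 was 0.0110 with age and -0.0169 to 0.0158 with single steers left out. The range over left-out steers was -0.000552 to 0.000112 for the second FBXO32 probe set and -0.000681 to 0.000828 for GLUL, which was -6.35e-05 with quantile normalization. The third SGK1 probe set was at -2.15e-06 with the median shift. That shift also turned ACVR2A (-2.02e-06), DEPTOR (-2.08e-06), GPT (-5.70e-07), MAOA (-2.11e-06), MTHFD2 (-2.04e-06), SGK3 (-2.14e-06) and SHMT2 (-1.90e-06). Quantile normalization turned FBXO9 (0.000183), GPT (-5.53e-05), NR3C1 (6.93e-06), RPS6KB1 (5.66e-05) and SHMT2 (-4.30e-06), and age turned GSK3A (1.15e-06). KCNJ2 did not keep its sign with quantile normalization either. The causes were not tested.

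Same-numbered steers had correlations of deviations of 0.0374, 0.0151 and 0.0152, and differently numbered steers of -0.0214 to 0.0061. The same-numbered values were the highest but all were small, so they cannot decide whether the numbers pair the steers. With the replicate block the SGK1 differences stayed at -0.00792 and -0.00392 (limma unadjusted p = 0.0723 and 0.0374, adjusted p = 1). Background correction and slide were not varied, since scanner values were not used here, and the higher and lower counts of lists were not computed with quantile normalization. Over the other 12 alternatives the higher count of a list moved by over 1.5 times in 5 for myostatin and activin, 4 for SGK1 substrates, 3 each for mTORC1 and ubiquitin ligases, 1 each for autophagy, glucocorticoid, insulin and integrated stress genes, and 0 for glutamine genes. Among markers it moved in 5 for macrophages, 4 each for connective tissue, lymphocytes and red blood cells, 3 for early genes, 2 for muscle fibres, 1 for endothelium and 0 for the rest. Signal over background is not known, so dim probe sets cannot be set apart.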

Other observations

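Markers of other cell types showed 0 genes past the adjusted threshold in limma. Endothelial markers were higher in restricted steers in 5 of 6 measured genes and smooth muscle and pericyte markers in 4 of 5. Macrophage markers were higher in 2 of 4, lymphocyte markers in 2 of 6, red blood cell markers in 2 of 4, nerve and myelin markers in 1 of 2, connective tissue markers in 2 of 6, skeletal muscle fibre markers in 2 of 8 and immediate early genes in 3 of 9. Over all genes 49.5% were higher. With the median shift, 2 genes turned lower in each of the endothelial, macrophage, red blood cell and immediate early lists. In the lymphocyte list 1 turned, and in the others named here 0.

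GLUL and CEBPD, a transcription factor induced by glucocorticoids, had a Pearson r of 0.727 over the 6 steers (exact permutation p = 0.0236, adjusted 0.233) and a Spearman rho of 0.543 (exact permutation p = 0.297, adjusted 0.648), with r at 0.972 without restricted steers 3 and 1. CEBPD, by the highest in mean of its 3 probe sets, read 5.9236, 5.9237 and 5.9246 in restricted steers, against 5.9235, 5.9245 and 5.9236 in supplemented steers. The relation was not particular to GLUL. With CEBPD, DDIT4 had an r of 0.727 (exact permutation p = 0.107, adjusted 0.450). The first SGK1 probe set had -0.727 (exact permutation p = 0.113, adjusted 0.450), and the first FBXO32 probe set 0.372 (exact permutation p = 0.526, adjusted 0.790).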
